A study of Mus musculus with 18 samples.

Results

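The mouse mitochondrial genome carries 37 genes in the annotation used here: 13 that code for proteins, 2 for ribosomal RNAs (rRNAs) and 22 for transfer RNAs (tRNAs). They were taken by their 37 Ensembl identifiers, a rule that uses no measured value, from the 51826 features of each deposited count table. The set itself was chosen with earlier results of these data known. Ribosome profiling, which sequences the RNA fragments that ribosomes protect from a nuclease, had been run on E14 mouse embryonic stem cells and on embryoid bodies grown from them. The 6 groups were wild type (WT), Quaking knockout and Sam68 knockout cells, each at day 0 and at day 10 of differentiation, with 3 libraries a group. Both knockout lines share the E14 background, and how many clones each represents is not given in the sources used here. Quaking and Sam68 belong to the STAR family of proteins, which bind RNA. The study compared the lines with each other at each day and each line with itself across days. Of these comparisons, Sam68 against Quaking knockout at day 0 was not tested here.

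Mitochondrial DNA is transcribed from both strands as long precursors, which are cut mostly at the tRNAs into separate rRNAs, tRNAs and messenger RNAs. All of its proteins are core subunits of the respiratory chain or of ATP synthase, and they are made on mitochondrial ribosomes whose rRNAs come from the same genome. Cycloheximide, used here at 100 µg/mL for 15 minutes, stalls cytosolic ribosomes and is known not to act on mitochondrial ones. Fragments of 28 to 32 nucleotides were cut from a gel after a 34% sucrose cushion, so counts on rRNA and tRNA genes are fragments of those molecules and not footprints of translation. Counts on a coding gene do not separate the amount of its mRNA from its translation, and no matched mRNA measurement was used.

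Total counts ranged from 988210 to 10646768 per library. In 3 day 10 libraries the 10 highest features held more than 40% of the counts: 70.4% in WT replicate 3, 60.2% in Sam68 knockout replicate 2 and 64.4% in Sam68 knockout replicate 3. In the other 15 libraries that share did not exceed 30.2%. The sample descriptions place each library in 1 of 3 mixes, which differ with the groups. They are called pools here, a reading inferred from the name and barcode and not stated. Pool 1 held WT and Quaking knockout at day 0. Pool 2 held Sam68 knockout at day 0 and WT at day 10, and pool 3 held both knockouts at day 10. Pool and group therefore cannot be told apart in any comparison other than Quaking knockout with WT at day 0 and Sam68 with Quaking knockout at day 10, which each lie within 1 pool. Levels below are CPM (a gene's counts per 1000000 counts of the library) scaled by the trimmed mean of M-values (TMM) unless they are called shares of the library total. Scaling matters because the 3 libraries with dominant features have small scaled sizes, which raises the CPM of every other gene in them.

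Of the 37 genes, 21 had at least 1 count and 16 were at 0 in all 18 libraries. The genes at 0 were 6 coding genes and 10 tRNA genes. After the filter on low counts, 14 genes were tested: 7 coding genes, both rRNA genes and 5 tRNA genes. Members that failed the filter are described only by their counts.

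The coding genes with counts were mt-Nd1, mt-Nd2, mt-Nd4, mt-Nd5 and mt-Nd6, subunits of complex I (NADH dehydrogenase); mt-Cytb, the cytochrome b of complex III; and mt-Co1, the catalytic subunit of complex IV (cytochrome c oxidase). The coding genes at 0 were mt-Co2 and mt-Co3 of complex IV, mt-Atp8 and mt-Atp6 of ATP synthase, and mt-Nd3 and mt-Nd4l of complex I. In the RefSeq annotation of GRCm38.p6, the 6 genes at 0 are all of the coding genes between mt-Co1 and mt-Nd4, from position 7013 to 10173 of chromosome MT. The genes on either side had counts in every library: mt-Co1 (positions 5328 to 6872) had 8232 counts in sum and mt-Nd4 (10167 to 11544) had 2139. The 6 genes had 0 of 80497750 counts, which allows a share of up to 3.73e-06% for each of them over the series. In single libraries, 3 counts correspond to 0.282 unscaled CPM in the deepest and 3.04 in the shallowest.

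The same table lists 2 pseudogenes on chromosome 1 whose lengths match genes in the block. Gm10925 (chromosome 1, 24613971 to 24614651) has 681 bases, as has mt-Atp6, and carries mt-Atp6 among its synonyms. Gm10222 (chromosome 1, 24612404 to 24612700) has 297 bases, as has mt-Nd4l. How reads that fit both a mitochondrial gene and a nuclear copy were counted is not given in the sources used here, and its part in the zeros was not tested. For the same reason the levels of all members with near-identical nuclear copies are uncertain. Strand use is also not given, so counts in the 14 bases that mt-Nd5 shares with mt-Nd6, which lies on the opposite strand, and in the 7 bases that mt-Nd4l shares with mt-Nd4 cannot be told apart.

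**Figure D1:**
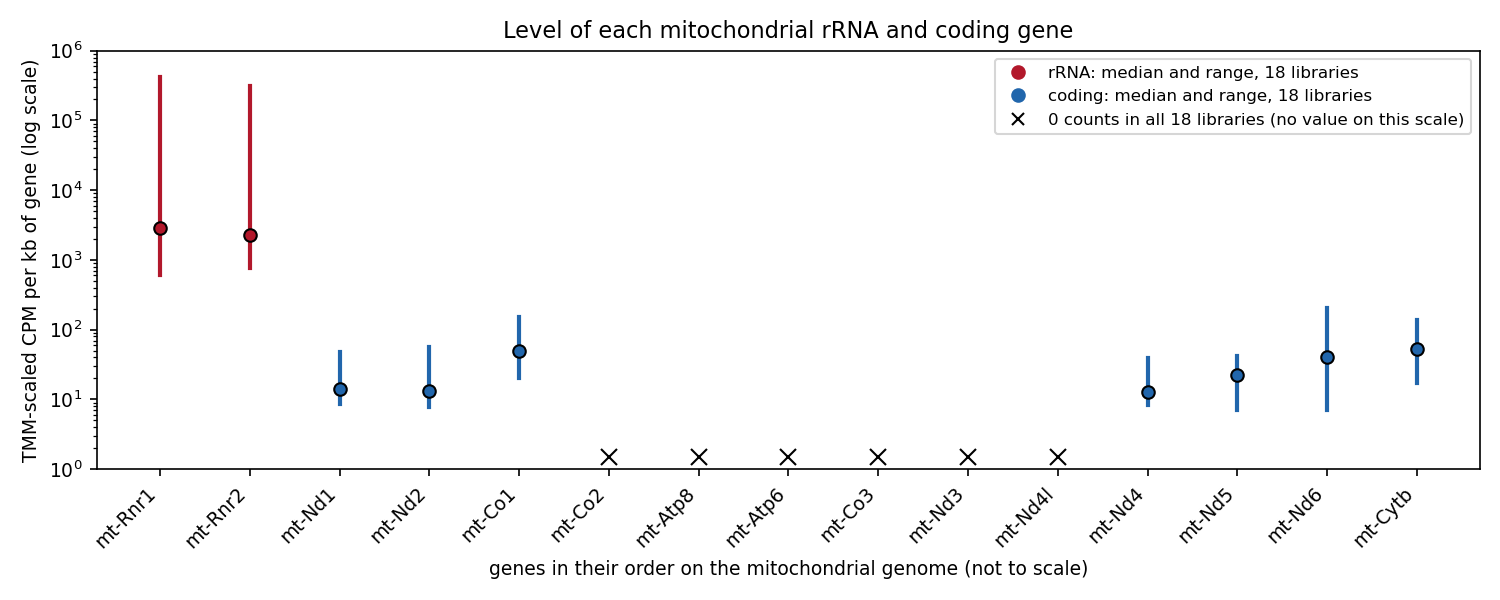
TMM-scaled CPM per kilobase (vertical log axis) of the 2 mitochondrial rRNA genes and 13 coding genes in their order on the genome, with the median (point) and range (line) over 18 libraries. Crosses mark the 6 neighbouring coding genes, mt-Co2 to mt-Nd4l, that had 0 counts in every library; the coding genes on both sides had counts in all of them.

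Per kilobase of gene, mt-Cytb, mt-Co1 and mt-Nd6 were all above the other 4 coding genes in 17 of 18 libraries. The exception was Quaking knockout day 10 replicate 1, where mt-Nd6 rested on 4 counts. The median level over 18 libraries was 53.1 CPM per kilobase for mt-Cytb, 48.7 for mt-Co1 and 41.1 for mt-Nd6. It was 22.1 for mt-Nd5, 14.2 for mt-Nd1, 13.4 for mt-Nd2 and 12.6 for mt-Nd4. The gene that ranked first was mt-Cytb in 10 libraries, mt-Co1 in 4 and mt-Nd6 in 4. The SD over all 18 libraries was 36.3 CPM per kilobase for mt-Cytb, 37.7 for mt-Co1 and 51.3 for mt-Nd6. For each of these genes it was larger than the gaps between their medians and than the gap of its median to that of mt-Nd5. These SDs run over libraries, whereas the order of genes was read within each library. The gaps between mt-Nd1, mt-Nd2 and mt-Nd4 were likewise smaller than their SDs of 10.0 to 13.3 CPM per kilobase.

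As a share of all mitochondrial coding counts, mt-Co1 gave a median of 32.0% (range 23.4% to 38.4%) and mt-Cytb 23.5% (16.8% to 29.3%). The complex I genes gave medians of 14% for mt-Nd5, 8.92% for mt-Nd6, 7.34% for mt-Nd4, 6.31% for mt-Nd2 and 5.81% for mt-Nd1. The share of mt-Nd6, the coding gene on the light strand, ranged most in relative terms, from 3.45% to 25.3%. Its highest share, in WT day 10 replicate 3, rested on 45 of 178 coding counts, with a 95% Wilson interval of 19.5% to 32.1%. Such intervals, and the limits given for counts of 0, cover at most counting error and leave out the variation between libraries. The libraries are not described as having molecular identifiers, so the counts may not be independent of each other.

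The 3 classes of gene took very different parts of the libraries. The coding genes held 0.0117% to 0.0675% of a library's total, or 116 to 5442 counts. The tRNA genes held 0.00385% to 0.0548%. The rRNA genes held 0.226% to 39.9%, and the ratio of rRNA to coding counts ran from 7.37 to 2146.

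At day 0 the rRNA share of the library total was 1.05%, 0.523% and 0.464% in WT, 3.00%, 0.596% and 0.562% in Quaking knockout, and 0.599%, 0.524% and 0.226% in Sam68 knockout. At day 10 it was 0.250%, 0.825% and 32.5% in WT, 0.716%, 14.3% and 0.697% in Quaking knockout, and 2.33%, 13.6% and 39.9% in Sam68 knockout. The high shares thus lay in 4 of the 9 day 10 libraries, at least 1 in each line, and the groups of WT and of Quaking knockout overlapped between days. Of these 4 libraries, 3 are the ones in which 10 features held over 40% of the counts. With the 37 members set aside, the 10 highest features still held 58.0%, 55.1% and 41.8% of the remaining counts in these 3. Their part in the results was not tested beyond leaving them out. Leaving them out left 1 Sam68 knockout library, replicate 1, at day 10, so such values for that group are that library's, and their p-values assume that it varies like the other groups.

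**Figure D2:**
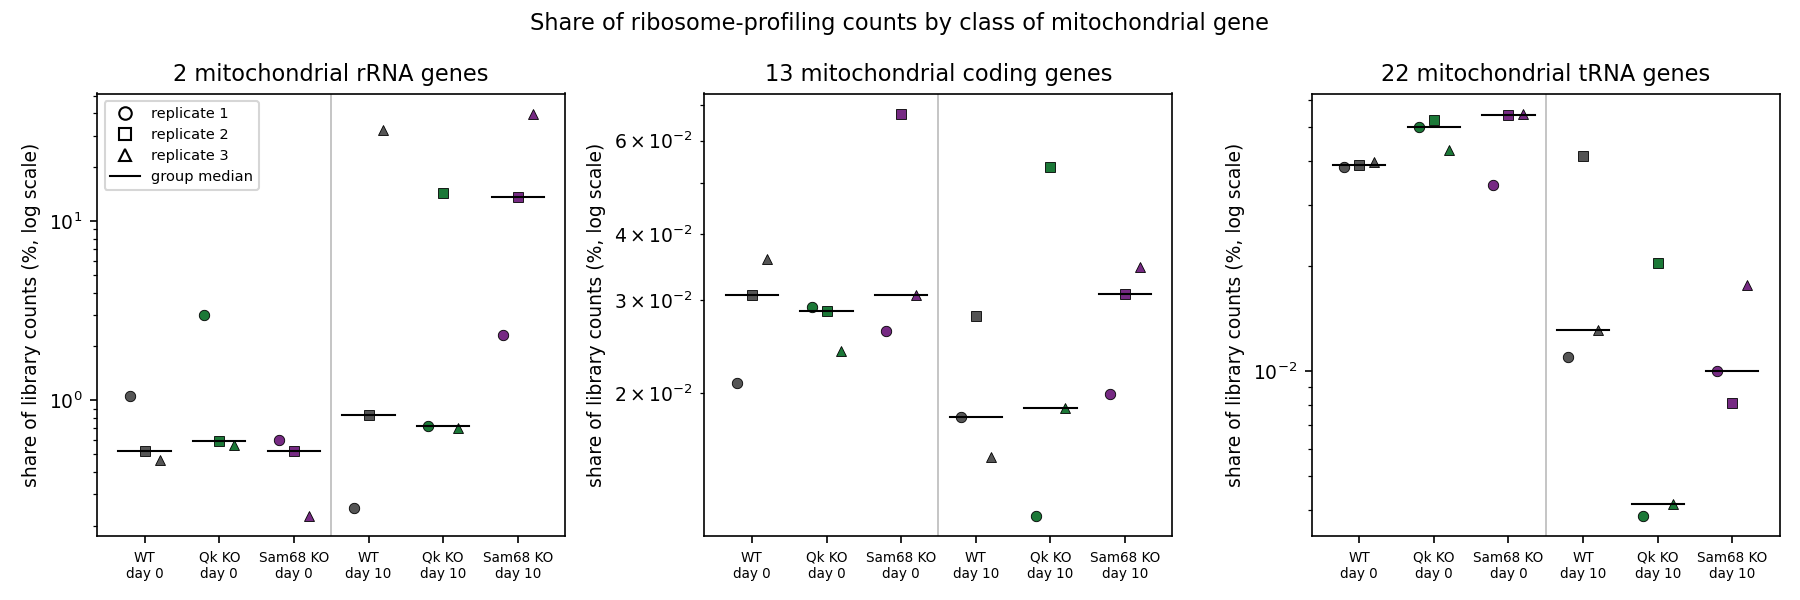
Share of each library's total counts (percent, log axes with a different range in each panel) held by the 2 rRNA, 13 coding and 22 tRNA genes of the mitochondrial genome, by group. Points are the 3 libraries of a group and lines their median; rRNA shares above 10% occurred at day 10 in 1 WT, 1 Quaking knockout and 2 Sam68 knockout libraries.

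The rRNA genes are described first because their counts set the scale of the class. The small rRNA, mt-Rnr1 (positions 70 to 1024), had 3487, 1231 and 1129 CPM in WT at day 0, and 767, 3143 and 402770 at day 10. In Sam68 knockout it had 1795, 1666 and 576 CPM at day 0, and 10131, 108876 and 386789 at day 10. In Quaking knockout it had 11475, 1502 and 1428 CPM at day 0, and 2780, 53339 and 2679 at day 10. All 3 Sam68 knockout libraries were higher at day 10 than any at day 0, whereas in WT only replicate 3 was above the day 0 range.

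The large rRNA, mt-Rnr2 (positions 1094 to 2675), had its highest levels in the same day 10 libraries. It had 4789, 3061 and 2708 CPM in WT at day 0, and 1676, 4928 and 494768 at day 10. In Sam68 knockout it had 3005, 2572 and 1219 CPM at day 0, and 12972, 148139 and 425215 at day 10. In Quaking knockout it had 15510, 3200 and 3029 CPM at day 0, and 3779, 67941 and 3483 at day 10. In WT, replicates 2 and 3 of day 10 lay above the day 0 range and replicate 1 below it. Without scaling only replicate 3 lay above that range: replicate 2 had 5039 CPM of the library total, and the highest day 0 library 6090. For both genes the spread between replicates was among the widest in the data: the pooled SD within groups, on the log2 CPM scale, was 2.59 for mt-Rnr1 and 2.38 for mt-Rnr2, against a median of 0.37 over all features tested. The ratio of mt-Rnr2 to mt-Rnr1 counts was 1.35 to 2.49 at day 0 and 1.10 to 2.18 at day 10.

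Between days, both rRNA genes passed the test in WT and in Sam68 knockout, with edgeR's quasi-likelihood test and Benjamini-Hochberg adjustment over 13701 genes. In WT, where 65.0% of all genes tested were called, the log2 fold change of day 10 over day 0 was 6.12 for mt-Rnr1 (SE 2.35, 95% interval 1.02 to 11.22, adjusted p = 0.0361) and 5.57 for mt-Rnr2 (SE 2.12, adjusted p = 0.0353). The WT result rested on 1 library: without WT day 10 replicate 3 the values were -0.10 (adjusted p = 0.963) and -0.20 (adjusted p = 0.915). Without any 1 of the WT day 0 libraries both calls were also lost, with adjusted p from 0.0708 to 0.109.

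In Sam68 knockout, where 65.3% of all genes were called, the change was 6.97 for mt-Rnr1 (SE 2.44, 95% interval 1.67 to 12.27, adjusted p = 0.0237) and 6.43 for mt-Rnr2 (SE 2.21, adjusted p = 0.0217). The 2 days did not overlap for either gene, as was so for 37.1% of all genes in the higher direction. Without Sam68 knockout day 10 replicate 3 the changes were 5.35 (adjusted p = 0.0660) and 5.04 (adjusted p = 0.0607), and with replicate 1 as the only day 10 library left 2.93 (adjusted p = 0.182) and 2.53 (adjusted p = 0.190). Leaving out any 1 of the Sam68 knockout day 0 libraries gave adjusted p from 0.0586 to 0.0758.

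In Quaking knockout, where 64.1% of all genes were called, mt-Rnr1 differed by 2.03 (95% interval -2.21 to 6.27, adjusted p = 0.384) between days. The day effects of the lines were not shown to differ for mt-Rnr1: the Sam68 knockout effect minus the WT effect was 0.85 (95% interval -4.94 to 6.64), and the Quaking knockout effect minus the WT effect was -4.09 (95% interval -10.09 to 1.91). Within pool 3, Sam68 knockout minus Quaking knockout at day 10 was 3.10 (95% interval -1.32 to 7.53, adjusted p = 0.312).

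The coding genes did not follow the rRNA genes in size. None of the 7 passed in any of the 10 comparisons, that is in 0 of 70 tests by edgeR, while 65.0%, 64.1% and 65.3% of all genes passed between days in WT, Quaking knockout and Sam68 knockout. The unadjusted p was under 0.05 in 1 of the 70 tests, and DESeq2 called 1. Between lines the share of all genes called was 0.365% for Quaking knockout and 1.26% for Sam68 knockout against WT at day 0, so 0 of 7 there is near the background. For the differences of day effects from WT it was 8.88% in Quaking knockout and 0.431% in Sam68 knockout. At day 10 it was 23.9% for Quaking knockout against WT, 0.175% for Sam68 knockout against WT and 23.7% for Sam68 against Quaking knockout. A test that was not passed does not show equal levels, and the coding genes varied more between replicates than most: their pooled SD within groups was 0.63 (mt-Nd2) to 1.00 (mt-Nd6) on the log2 scale. Since these are bulk samples, fewer cells of a type and less RNA per cell cannot be told apart.

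Between days, the median log2 fold change of the 7 coding genes was 0.14 in WT, beside 0.10 over all genes tested, and single genes ran from -0.37 (mt-Nd5) to 1.29 (mt-Nd6). The WT median had no settled sign: it was -0.03 with 3 of 7 genes above 0 without the 3 libraries with dominant features, and ran from -0.22 to 0.31 over the libraries left out in turn. In Quaking knockout the median was 0.45, beside 0.11, with 5 of 7 genes above 0. Quaking knockout day 10 replicate 2 decided that value: without it the median was -0.60 with 1 of 7 genes above 0. In Sam68 knockout the median was 0.44, beside 0.11, with all 7 genes above 0 and values from 0.24 to 1.16. That direction depended on single libraries: without Sam68 knockout day 10 replicate 3 the median was -0.01 with 3 of 7 genes above 0. With only replicate 1 left at day 10, which had the lowest scaled level of its group for all 7 genes, it was -0.57 with 1 of 7 above 0. As shares of the library total, which are not scaled, coding counts were 0.0263%, 0.0675% and 0.0307% in Sam68 knockout at day 0 and 0.0200%, 0.0309% and 0.0346% at day 10, and the days overlapped.

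In WT the coding share of the library total was 0.0209%, 0.0307% and 0.0358% at day 0, and 0.0181%, 0.0280% and 0.0151% at day 10. In Quaking knockout it was 0.0291%, 0.0286% and 0.0240% at day 0, and 0.0117%, 0.0535% and 0.0187% at day 10. The days overlapped in both lines. The lowest coding shares rested on few counts, 116 in Quaking knockout day 10 replicate 1 and 178 in WT day 10 replicate 3.

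Between lines at day 0, the median difference of the coding genes from WT was -0.09 in Quaking knockout, the same as the median of -0.09 over all genes. In Sam68 knockout it was 0.55, beside 0.02, with all 7 genes above 0. Sam68 knockout day 0 replicate 2 decided that value: without it the median was -0.09 with 2 of 7 genes above 0. At day 10, Sam68 knockout minus WT had a median of 0.83, beside -0.01, with all 7 genes above 0 and values from 0.48 to 1.34. Sam68 minus Quaking knockout, which share a pool, had a median of 0.78, beside 0.03, again with all 7 above 0. These comparisons share libraries. Over the libraries left out in turn the medians ran from 0.46 to 1.31 and from 0.48 to 1.78. With replicate 1 as the only Sam68 knockout library, after the 3 libraries with dominant features were left out, they were -0.18 and -0.43, with 1 of 7 genes above 0 in each. Quaking knockout minus WT at day 10 had a median of 0.08, beside -0.03, and of -0.92 with 0 of 7 genes above 0 without Quaking knockout replicate 2.

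**Figure D3:**
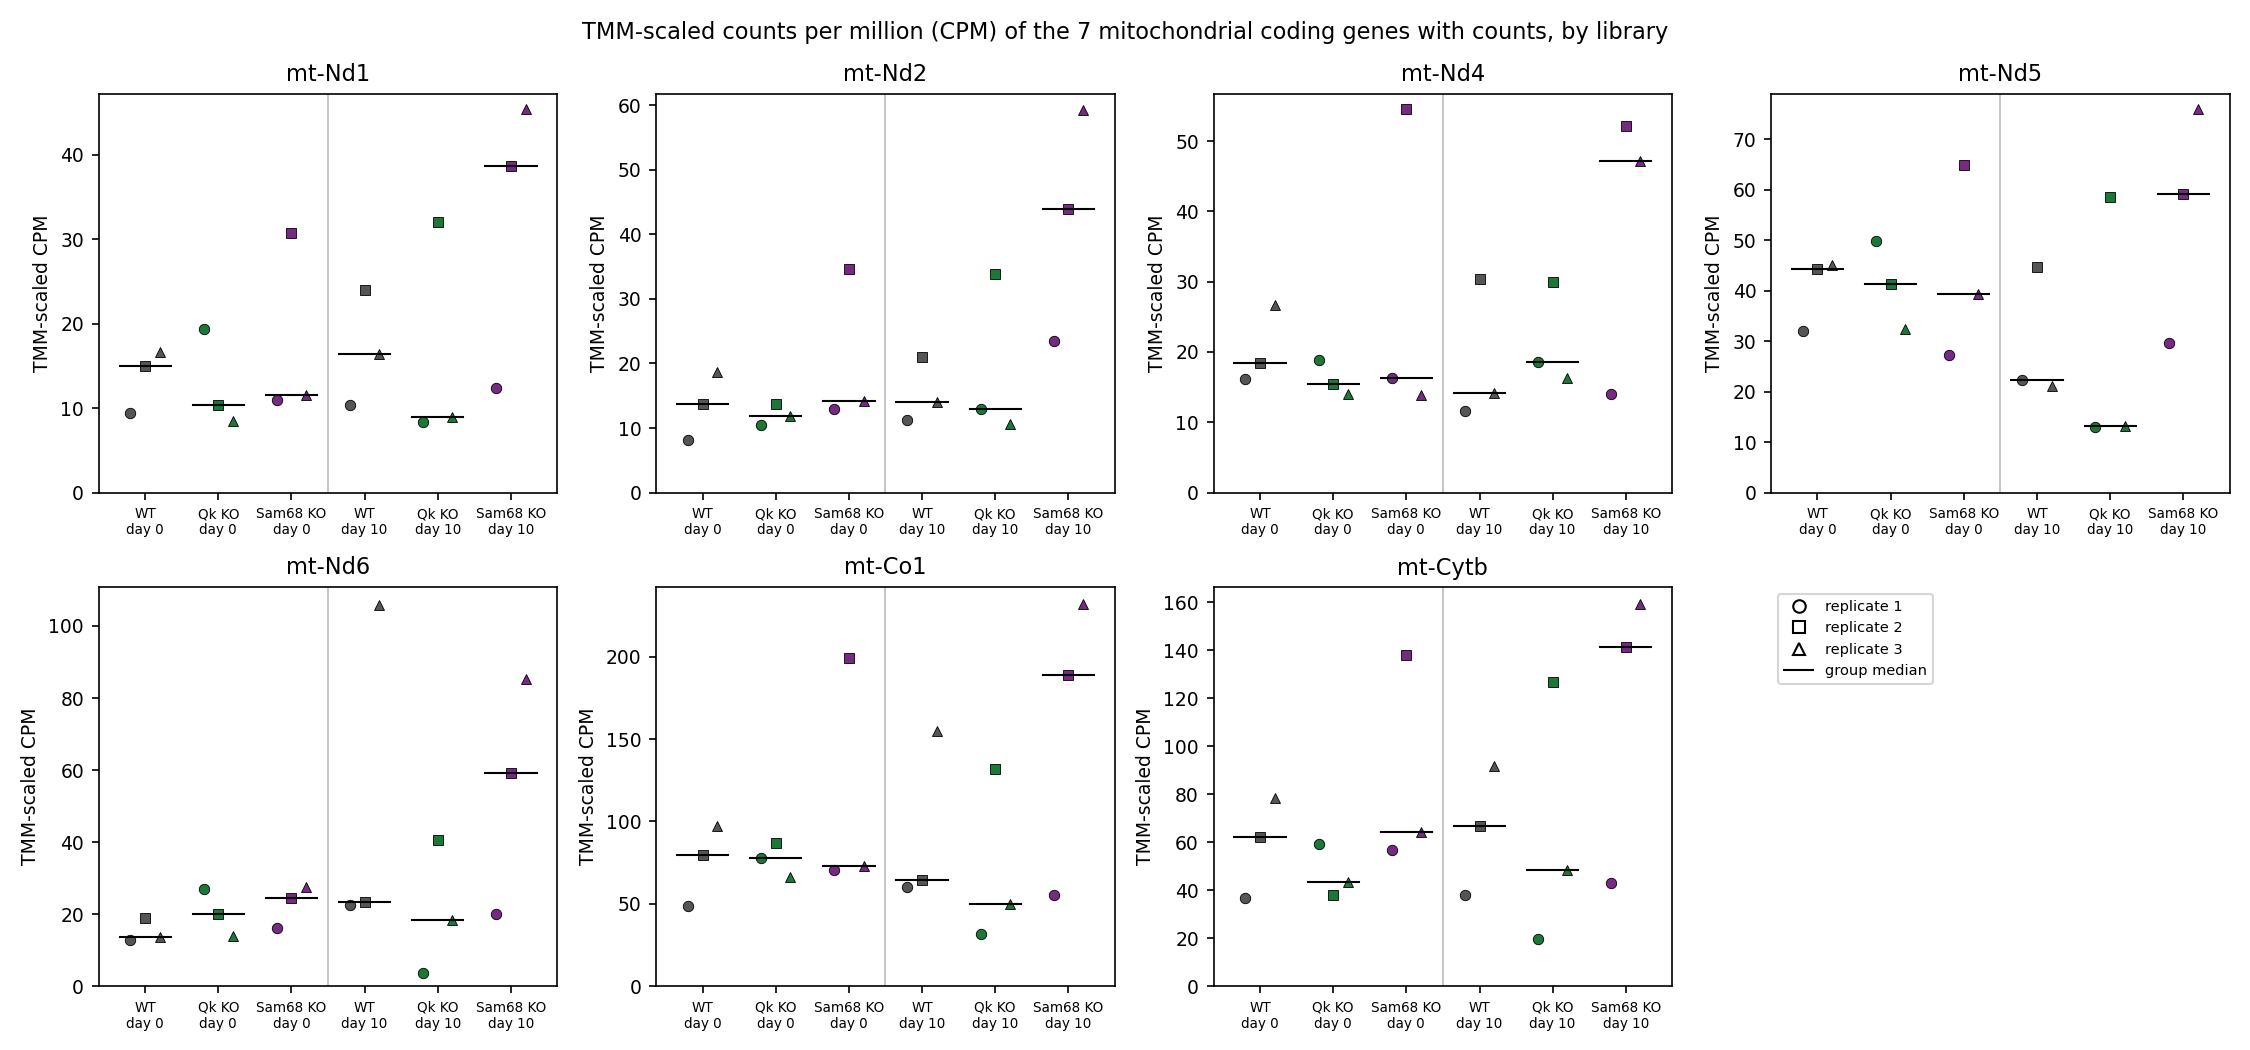
TMM-scaled CPM (linear axes from 0) of the 7 mitochondrial coding genes with counts, by group. Symbols are the 3 libraries of a group and lines their median; Quaking knockout day 10 replicate 2 was the highest of its group for all 7 genes, and Sam68 knockout day 0 replicate 2 and day 10 replicate 3 for 6 each.

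The same library tended to be highest or lowest of its group for several coding genes. Quaking knockout day 10 replicate 2 was the highest of its group for 7 of 7 genes. Sam68 knockout day 0 replicate 2, Sam68 knockout day 10 replicate 3 and WT day 0 replicate 3 were highest for 6 of 7, and WT day 0 replicate 1 and Sam68 knockout day 10 replicate 1 lowest for 7 of 7. Other groups were split: in WT at day 10 replicate 2 was highest for 4 genes and replicate 3 for 3, and in Quaking knockout at day 0 replicate 1 was highest for 5 and replicate 2 for 2. Without scaling, WT day 10 replicate 3 was lowest for 6 of 7 genes, and Sam68 knockout day 10 replicate 1 also for 6.

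The most abundant coding gene, mt-Co1 of complex IV, had 49.0, 79.9 and 97.1 CPM in WT, 77.8, 86.7 and 66.5 in Quaking knockout and 70.3, 199 and 72.7 in Sam68 knockout at day 0. The day 10 libraries had 60.3, 64.2 and 155 CPM in WT, 31.5, 132 and 49.9 in Quaking knockout, and 55.3, 189 and 232 in Sam68 knockout. All compared groups overlapped. The order of libraries depended on the scaling: WT day 10 replicate 3 was the highest WT library at 155 scaled CPM and the lowest at 56.1 unscaled CPM.

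For mt-Cytb of complex III the values were 36.7, 62.2 and 78.5 CPM in WT, 59.4, 37.9 and 43.4 in Quaking knockout, and 56.8, 138 and 64.1 in Sam68 knockout at day 0. At day 10 they were 38.1, 66.7 and 91.6 CPM in WT, 19.5, 127 and 48.5 in Quaking knockout, and 43.1, 141 and 159 in Sam68 knockout. All compared groups overlapped here too. Without scaling, Sam68 knockout day 0 replicate 2 (246 CPM for mt-Co1, 170 for mt-Cytb) and Quaking knockout day 10 replicate 2 (155 and 150) were the highest libraries for both genes.

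Among the complex I genes, mt-Nd6 came nearest to a change with time in WT. It had 12.8, 18.9 and 13.6 CPM in WT at day 0 and 22.5, 23.3 and 106 at day 10, so the days did not overlap, as was so for 34.1% of all genes in the higher direction. The log2 fold change was 1.29 (SE 0.73, 95% interval -0.29 to 2.86, adjusted p = 0.137 by edgeR's quasi-likelihood test); DESeq2 gave 1.68 with an adjusted p of 0.0404. Without WT day 10 replicate 3, the library at 106 CPM, edgeR gave 0.50 (adjusted p = 0.498). Without scaling the WT days were only just apart, at 23.03, 23.8 and 38.3 CPM of the library total at day 10 against 16.3, 22.97 and 16.4 at day 0. In the knockouts mt-Nd6 overlapped between days: 26.8, 20.1 and 14 CPM against 3.71, 40.5 and 18.2 in Quaking knockout, where the value of 3.71 rested on 4 counts, and 16.1, 24.5 and 27.5 against 20.1, 59.2 and 85.2 in Sam68 knockout.

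For mt-Nd2, Sam68 knockout and WT did not overlap at day 10. It had 11.2, 21.0 and 14.1 CPM in WT, 13, 33.8 and 10.7 in Quaking knockout and 23.5, 44.0 and 59.3 in Sam68 knockout. The WT value of 14.1 CPM, in replicate 3, rested on 6 counts. The Sam68 knockout libraries were all above the WT ones, as was so for 6.18% of all genes. This held without scaling, but only just: the lowest Sam68 knockout library had 23.2 CPM of the library total and the highest WT library 21.5. Quaking knockout overlapped with both WT and Sam68 knockout. The log2 difference was 1.34 (SE 0.56, 95% interval 0.14 to 2.54); its unadjusted p of 0.0309 became 0.656 after adjustment over all genes. Without the 3 libraries with dominant features, which leaves Sam68 knockout replicate 1 alone, the difference was 0.57. At day 0 mt-Nd2 had 8.13, 13.7 and 18.6 CPM in WT, 10.4, 13.8 and 11.9 in Quaking knockout, and 13, 34.6 and 14.2 in Sam68 knockout, which overlapped. Without Sam68 knockout day 0 replicate 2 the Sam68 knockout change between days was 1.56 (adjusted p = 0.0133, edgeR), against 0.93 (adjusted p = 0.118) with it.

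The longest coding gene, mt-Nd5 (positions 11742 to 13565), had 32.1, 44.3 and 45.1 CPM in WT, 49.8, 41.3 and 32.5 in Quaking knockout, and 27.2, 64.9 and 39.4 in Sam68 knockout at day 0. The day 10 libraries had 22.3, 44.8 and 21.1 CPM in WT, 13, 58.6 and 13.2 in Quaking knockout, and 29.7, 59.2 and 75.9 in Sam68 knockout. Quaking knockout replicate 2 stood far above the other 2 libraries of its group. Without it, mt-Nd5 fell by 1.69 on the log2 scale between days in Quaking knockout (adjusted p = 0.0132, edgeR), against -0.44 (adjusted p = 0.520) with it, and at day 10 Sam68 knockout exceeded Quaking knockout by 1.98 for mt-Nd5 (adjusted p = 0.0174) and by 1.78 for mt-Nd2 (adjusted p = 0.0377).

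The remaining complex I genes, mt-Nd1 and mt-Nd4, overlapped in every comparison. Over the 18 libraries mt-Nd1 ran from 8.35 to 45.4 CPM with a median of 13.6, and mt-Nd4 from 11.5 to 54.6 CPM with a median of 17.4.

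**Figure D4:**
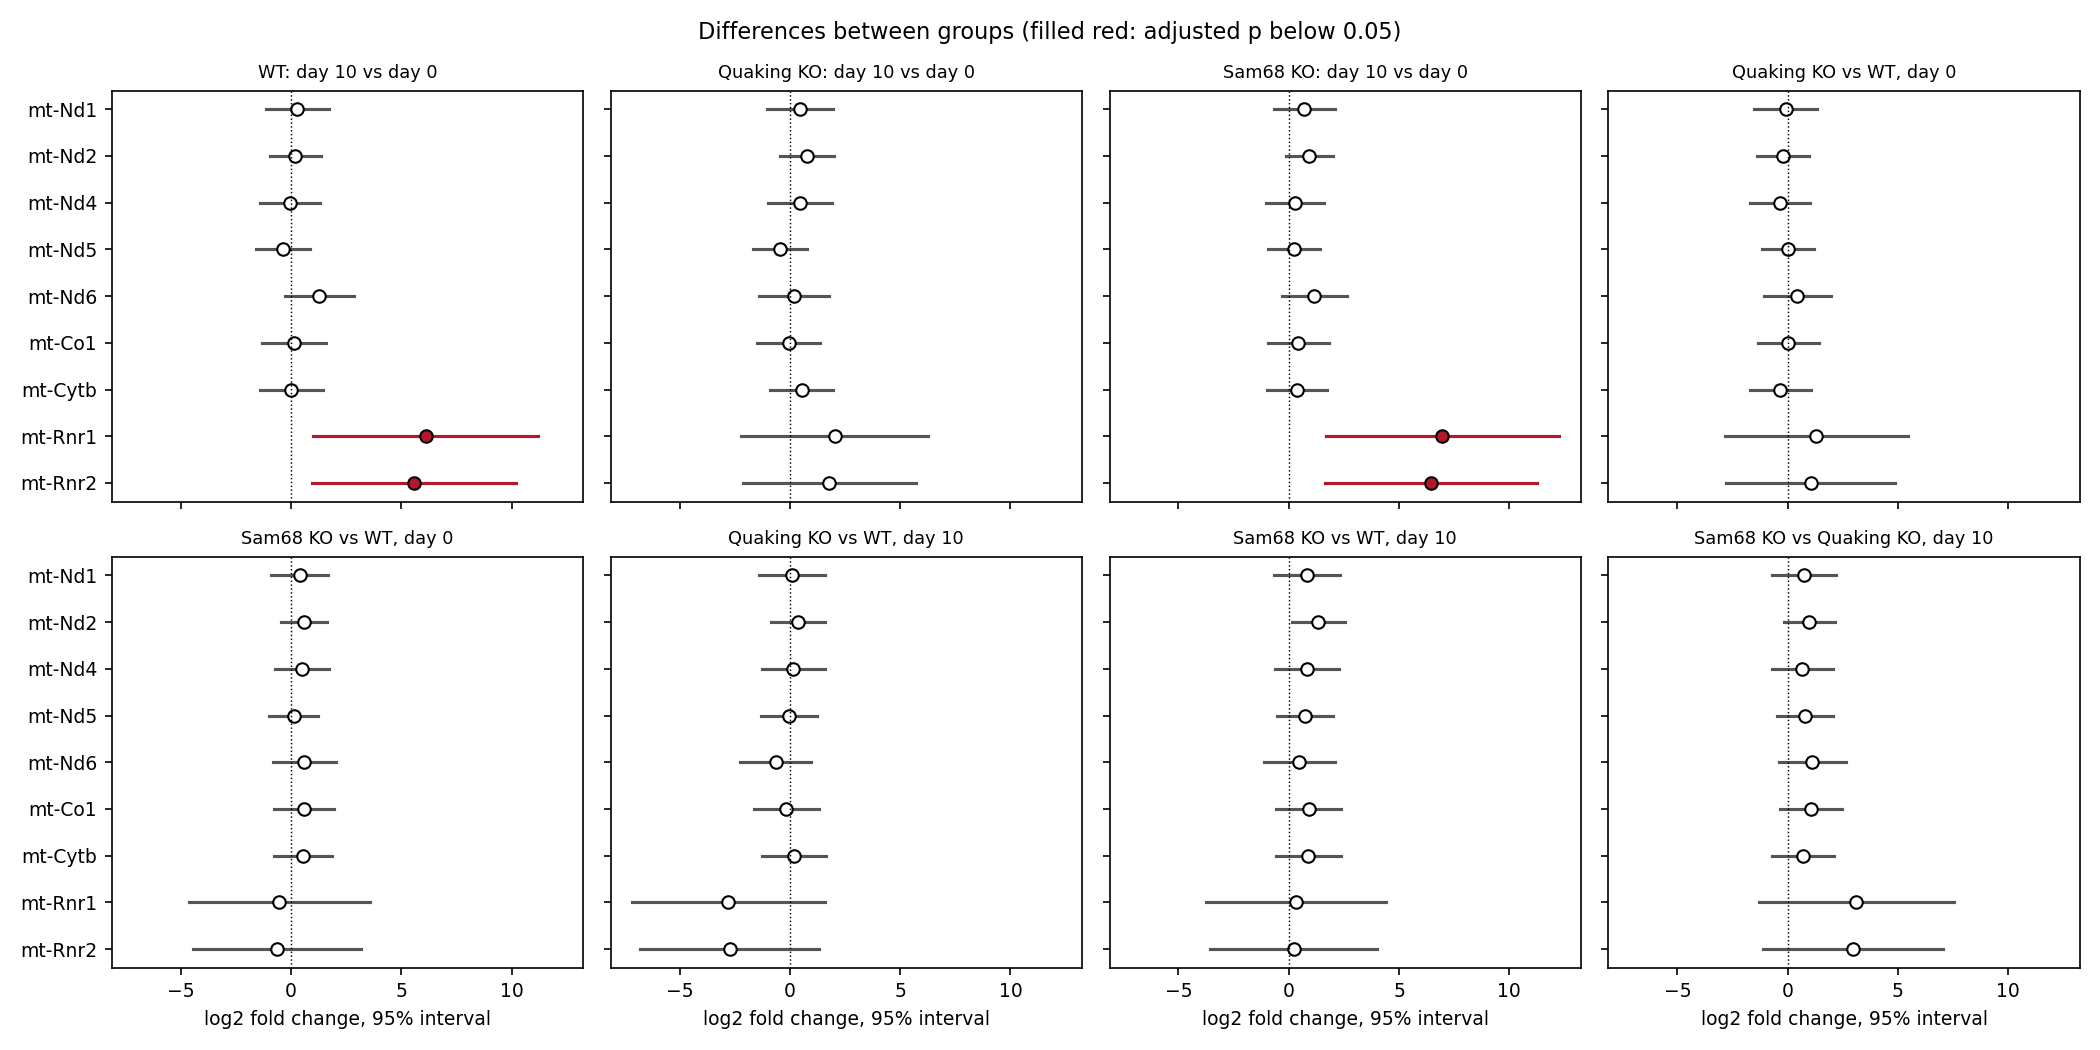
Log2 fold change with its 95% interval (edgeR quasi-likelihood fit over 18 libraries) for the 7 mitochondrial coding genes and 2 rRNA genes in 8 comparisons; filled red points passed an adjusted p of 0.05. The coding intervals all include 0 except that of mt-Nd2 in Sam68 knockout against WT at day 10, and the rRNA intervals are wider than the coding ones.

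The summed counts of the tRNA genes, 82.9% of which lay on ENSMUSG00000064338, were a smaller share of the library at day 10 in the knockouts. That share of the library total was 0.0503%, 0.0524% and 0.0432% in Quaking knockout at day 0 and 0.00385%, 0.0204% and 0.00415% at day 10. In Sam68 knockout it was 0.0342%, 0.0542% and 0.0548% at day 0 and 0.0100%, 0.00809% and 0.0177% at day 10. In WT it was 0.0385%, 0.0391% and 0.0399% at day 0 and 0.0109%, 0.0415% and 0.0131% at day 10, where replicate 2 lay above the day 0 range. The days did not overlap in the knockouts, and pool and day cannot be told apart in any line.

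The summed share does not stand for all tRNA genes, since single genes moved in both directions. ENSMUSG00000064338 had 21484 of the 25900 tRNA counts. The tRNA genes are given by identifier because the files do not pair identifiers with names. Of the other tRNA genes, 7 had counts but failed the filter, with 3 to 68 counts in sum and at most 14 in any library. ENSMUSG00000064336 and ENSMUSG00000064372 were tested and passed in no comparison (lowest adjusted p = 0.0650 by edgeR).

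ENSMUSG00000064338 had 277, 264 and 283 CPM in WT, 399, 371 and 314 in Quaking knockout and 258, 400 and 416 in Sam68 knockout at day 0. At day 10 it had 65.8, 250 and 89.3 CPM in WT, 17.6, 98.4 and 15.4 in Quaking knockout, and 55.8, 56.4 and 126 in Sam68 knockout. Every day 10 library of a line lay below every day 0 library of that line, as was so in the lower direction for 33.0% of all genes in WT, 30.8% in Quaking knockout and 32.9% in Sam68 knockout. By edgeR's test ENSMUSG00000064338 fell by 2.97 on the log2 scale in Quaking knockout (SE 0.68, adjusted p = 0.00204), where 64.1% of all genes were called. In Sam68 knockout, where 65.3% of all genes were called, it fell by 2.22 (SE 0.66, adjusted p = 0.0105). In WT the difference was -0.98 (95% interval -2.37 to 0.40, adjusted p = 0.193).

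The day effects on ENSMUSG00000064338 were not shown to differ between lines: the Quaking knockout effect minus the WT effect was -1.99 (adjusted p = 0.221) and the Sam68 knockout effect minus the WT effect was -1.23 (adjusted p = 0.799). With pool as a block, the day term equals the WT change plus the Sam68 knockout change minus the Quaking knockout change. That term was -0.23 (SE 1.11, adjusted p = 0.910, edgeR). It counts the Quaking knockout fall as a rise, so it does not test whether the falls remain once pool is allowed for. With replicate 1 as the only Sam68 knockout library left at day 10, that line's change was -2.67 (adjusted p = 0.0609).

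ENSMUSG00000064344 moved the other way. It had 9.73, 22.2 and 22 CPM in WT at day 0 and 29.1, 102 and 265 at day 10, which did not overlap, as was so for 34.1% of all genes in the higher direction. In Sam68 knockout it had 11.4, 29.5 and 10.2 CPM at day 0 and 29.3, 81.2 and 213 at day 10, where the lowest day 10 library lay just below the highest of day 0. In Quaking knockout it had 34.9, 21.2 and 11.5 CPM at day 0 and 3.71, 55.0 and 10.7 at day 10, which overlapped.

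By edgeR's test ENSMUSG00000064344 rose by 2.66 on the log2 scale in WT (SE 1.00, adjusted p = 0.0328), where 65.0% of all genes were called. In Sam68 knockout, where 65.3% of all genes were called, it rose by 2.55 (SE 0.98, adjusted p = 0.0364). Its highest libraries, replicate 3 of WT and of Sam68 knockout at day 10, were also those with the highest rRNA shares. Without WT day 10 replicate 3 the WT change was 1.73 (adjusted p = 0.129). Without Sam68 knockout day 10 replicate 3 the Sam68 knockout change was 1.49 (adjusted p = 0.209), and with replicate 1 alone at day 10 it was 0.75 (adjusted p = 0.599).

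**Figure D5:**
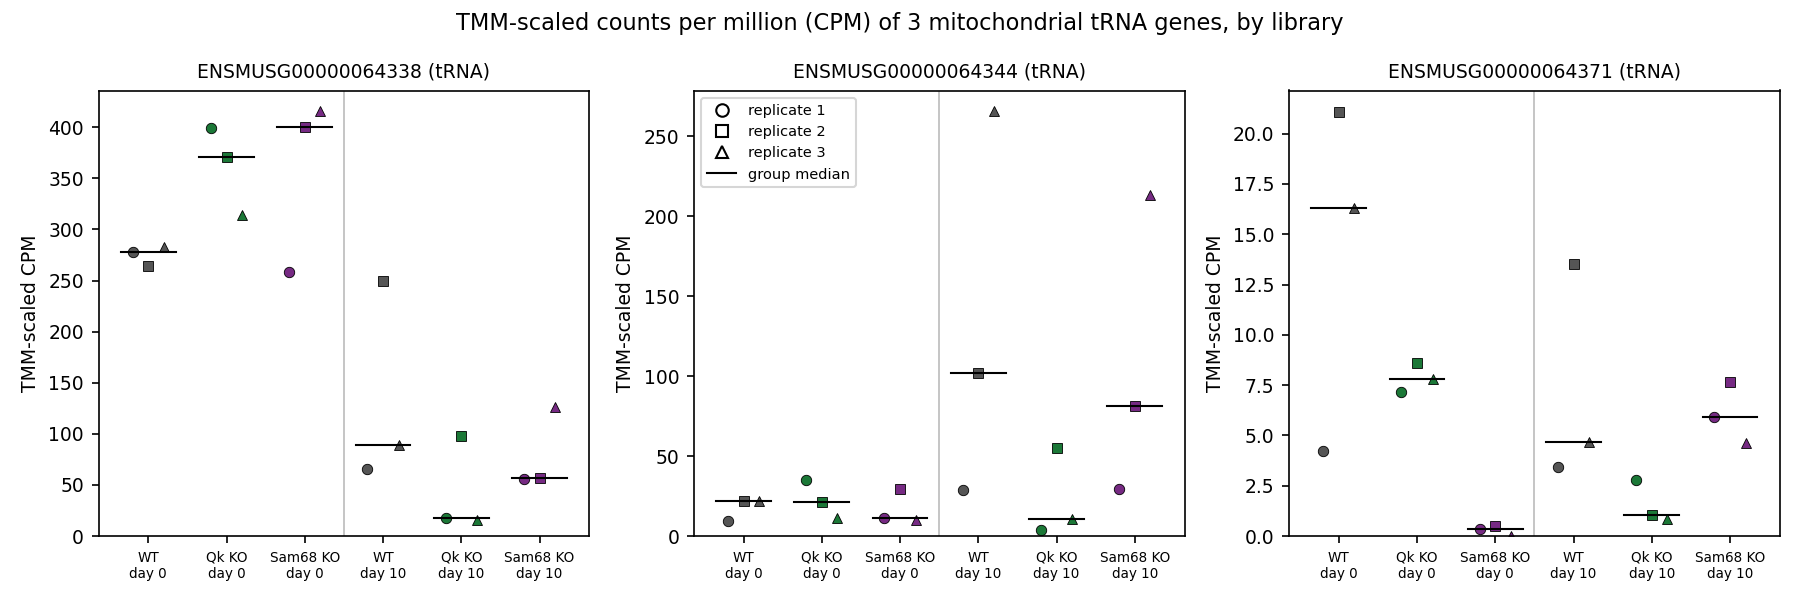
TMM-scaled CPM (linear axes from 0) of the 3 mitochondrial tRNA genes that passed the test in at least 1 comparison, by group. Symbols are the 3 libraries of a group and lines their median; the left gene was lower at day 10 in all 3 lines, and the right gene had 7 counts in sum in the Sam68 knockout day 0 group.

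ENSMUSG00000064371 was the member with the most calls, at low counts. At day 0 it had 4.21, 21.1 and 16.3 CPM in WT, 7.16, 8.61 and 7.80 in Quaking knockout, and 0.346, 0.502 and 0 in Sam68 knockout, from 2, 5 and 0 counts. At day 10 it had 3.45, 13.5 and 4.70 CPM in WT, 2.78, 1.03 and 0.841 in Quaking knockout, from 3, 4 and 3 counts, and 5.91, 7.65 and 4.63 in Sam68 knockout. The low groups were thus Sam68 knockout at day 0 and Quaking knockout at day 10, neither of which overlapped with WT of the same day, as was so in the lower direction for 9.96% of all genes at day 0 and 15.7% at day 10.

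In Sam68 knockout at day 0, ENSMUSG00000064371 was lower than in WT by a log2 difference of -5.40 (SE 0.70, adjusted p = 0.000178, edgeR), where 1.26% of all genes were called. Between days, where 65.3% of all genes were called, it rose by 4.23 in Sam68 knockout (SE 0.76, adjusted p = 6.57e-05, edgeR). The difference of that day effect from the WT day effect passed as well, at 5.06 (SE 0.94, 95% interval 3.09 to 7.02, adjusted p = 0.0180), in a comparison where 0.431% of all genes were called. With only these groups in the fit the difference from WT at day 0 had an adjusted p of 0.0533 and the difference of day effects 0.142. Leaving out Sam68 knockout day 0 replicate 3 or day 10 replicate 2 gave adjusted p of 0.0503 and 0.0627 for the difference of day effects.

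Of all genes, 64.1% were called between days in Quaking knockout. At day 10, 23.9% were called for Quaking knockout against WT and 23.7% for Sam68 against Quaking knockout. In Quaking knockout, ENSMUSG00000064371 fell by 2.65 on the log2 scale between days (SE 0.75, adjusted p = 0.00407, edgeR). At day 10 it was lower than in WT by a log2 difference of -2.65 (SE 0.75, adjusted p = 0.0129), which lost its call without WT replicate 2 (-1.56, adjusted p = 0.187) or without Quaking knockout replicate 2 or replicate 3 (adjusted p = 0.0704 and 0.0844). Within pool 3, Sam68 knockout exceeded Quaking knockout by 2.31 (SE 0.76, adjusted p = 0.0319), which did not hold without Sam68 knockout replicate 1 or 2 or Quaking knockout replicate 2 or 3 (adjusted p from 0.0851 to 0.151). With pool as a block, the day term equals the WT change plus the Sam68 knockout change minus the Quaking knockout change. For this gene it was 6.05 (adjusted p = 0.000429, edgeR). It holds the Quaking knockout fall with its sign turned, so it does not test that fall. The Sam68 knockout term was 1.48 (adjusted p = 0.387, edgeR). It adds Sam68 minus Quaking knockout at day 10 to Quaking knockout minus WT at day 0. No Sam68 knockout day 0 library enters it, so it does not test the difference at day 0.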

How the data were processed

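Ribosome profiling of 18 libraries (6 groups of 3, called biological triplicates in the series' design) was used. The authors deposited 1 file a library, with an unnormalized read count for each of 51826 Ensembl identifiers. The submitters' processing notes name STAR 2.5.3a, Bowtie2, bcl2fastq 2.17.1.14 and the builds mm10 and GRCm38. Which program made the counts, and with which annotation release and strand setting, is not given in the sources used here. Nothing says that replicates came from separate cultures, so p-values measure the spread between these libraries. Sample titles gave the group and replicate number of each library, and descriptions its mix, which was taken as its pool.

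The members, gene lists and tests were chosen with earlier results of these data known. One model over all 18 libraries was fitted with edgeR 4.0.16 in R 4.3.3 (TMM scaling, filterByExpr by group, robust quasi-likelihood test, two-sided). It tested 13701 of 33167 genes with any count, with Benjamini-Hochberg adjustment over all of them and a threshold of 0.05. In a self-test the method was run on counts simulated from the WT day 0 means with changes planted in them. It was not set up to mimic libraries with dominant features, so it does not bear on calls that rest on them. Named are all coding and rRNA members, and those tRNA members that passed the test in at least 1 of 10 comparisons, at most 5, by mean CPM. Shares of a library's total carry 95% Wilson intervals.

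Alternatives were RLE and upper quartile scaling, scaling without the 37 members, no filter, DESeq2 1.42.0, only the groups compared, the replicate number as a block, pool as a block, leaving out the 3 libraries with dominant features, and leaving out each library in turn. With pool as a block the model had as many terms as groups. Outside comparisons within 1 pool, its values are other combinations of the group means and do not re-estimate the named differences. Positions and names of the coding and rRNA genes came from the RefSeq table of GRCm38.p6. Lists of nuclear respiratory-chain, mitoribosome and cell type marker genes, and the check of the knocked-out genes, were not run, because 0 of these symbols could be matched to an identifier in the tables used here; the labelled cell types were therefore not checked against markers.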

Additional observations from a re-analysis of the deposited data

Results flagged for a closer look

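The day effect on the tRNA gene ENSMUSG00000064371 differed between lines: the change from day 0 to day 10 in Sam68 knockout minus that in WT was 5.06 on the log2 scale (adjusted p = 0.0180, edgeR's quasi-likelihood test of the interaction), with 7 counts in sum in the Sam68 knockout day 0 group. The gene was higher at day 10 in all 3 Sam68 knockout libraries than in any at day 0, as was so for 37.1% of all genes, while the WT days overlapped. Adjusted p over the alternatives that lost the call ran from 0.0503 to 0.191, the last with 1 Sam68 knockout library left at day 10, and the part of the pools in this difference was not tested.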

How the results depend on the processing

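All runs counted in this section include those with pool as a block. Outside 1 pool these do not re-estimate the named differences, and within 1 pool they repeat the main estimates. The count of coding genes called was 0 in 154 of 160 runs of an alternative in a comparison. Without Sam68 knockout day 0 replicate 2 it was 1 (mt-Nd2) in Sam68 knockout between days, with a range of 0 to 1 over the libraries left out. Without Quaking knockout day 10 replicate 2 it was 1 (mt-Nd5) in Quaking knockout between days, range 0 to 1, and 2 (mt-Nd2 and mt-Nd5) in Sam68 against Quaking knockout at day 10, range 0 to 2. DESeq2 called 1 (mt-Nd6) in WT between days. With the replicate block, 1 was called (mt-Nd2) in Sam68 knockout between days (1.03, adjusted p = 0.00760) and 1 in Sam68 against Quaking knockout at day 10 (1.15, adjusted p = 0.0197). No pairing by replicate number was seen in the correlation of deviations from group means. Over 45 same-numbered pairs it ran from -0.19 to 0.44 with a median of -0.02. Over 90 pairs with different numbers it ran from -0.43 to 0.30 with a median of 0.01. Of 18 libraries, 7 correlated best with their own number. These values cannot show whether same-numbered libraries were handled together. The replicate block also ended the rRNA calls in WT (adjusted p = 0.129 and 0.126) and in Sam68 knockout (0.0571 and 0.0556).

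Of 213 runs for the called rRNA and tRNA genes, 149 kept direction and call, 58 lost the call and 6 changed direction. The runs with pool as a block are among them under each label, so the tally does not measure how firmly the calls hold. Direction changed in WT between days for mt-Rnr1 and mt-Rnr2 without WT day 10 replicate 3 (-0.10 and -0.20). It also changed for both without the 3 libraries with dominant features (-0.017 and -0.11). The other changes were with pool as a block, for ENSMUSG00000064371 in Quaking knockout between days (6.05) and in Sam68 knockout against WT at day 0 (1.48). Those values are other combinations of the group means, so they do not show that the named differences turned. Over the libraries left out in turn, the WT change ran from -0.10 to 6.82 for mt-Rnr1 and from -0.20 to 6.13 for mt-Rnr2. With no filter on low counts, the rRNA calls were lost in WT (adjusted p = 0.0894 and 0.0890) and Sam68 knockout (0.0583 and 0.0540). The mean coding share in Sam68 knockout at day 10 was 0.0285% of the total, 0.0379% of counts outside the rRNA and tRNA genes, and 0.0200% in the library left without those with dominant features. The cause was not tested in any of these cases. Depth limits the coding genes most where a library had 116 or 178 coding counts.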
